A study of Rattus norvegicus with 8 samples.

Results

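Expression of 9 genes that handle heme and iron was compared between outflow veins of rats that received β-aminopropionitrile (BAPN) scaffolds and rats that received vehicle scaffolds. The genes, Hmox1, Hmox2, Blvra, Blvrb, Slc40a1, Slc11a1, Tfrc, Cp and Fth1, were found by name among 32623 listed rat Ensembl genes. The counts came from 8 Sprague Dawley rats of both sexes, 4 with BAPN (3 females and 1 male) and 4 with vehicle (2 females and 2 males), and their ages are not given in the sources used here. In every rat the epigastric vein had been joined to the femoral artery to make an arteriovenous fistula (AVF), and the electrospun scaffold was wrapped around the vein near the junction at surgery. BAPN is an inhibitor of lysyl oxidases, which crosslink elastin and collagen, and vehicle scaffolds were made without it. The veins were collected at 21 days, and 1 ribosomal RNA-depleted library was sequenced from each rat. A gene was tested when its base mean, the mean normalized count over the 8 libraries, was at least 100, which 8 of the 9 genes and 11682 genes in all reached.

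Heme is split by heme oxygenases into biliverdin, carbon monoxide and iron. Hmox1 encodes the oxygenase that cells induce under stress and after taking up heme, and Hmox2 the one that most cells make at a steady level. Biliverdin reductases then turn biliverdin into bilirubin. The freed iron is stored in ferritin, whose heavy chain is encoded by Fth1, or leaves the cell through ferroportin, the product of Slc40a1. Iron bound to transferrin enters cells through the transferrin receptor Tfrc, ceruloplasmin (Cp) oxidizes iron outside the cell, and Slc11a1 moves metal ions out of the phagosomes of macrophages. In the vessel wall Hmox1 is known as an inducible protective enzyme, and macrophages that clear red cells express much of this pathway.

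Promoter sequences were looked up because heme-degrading genes are known to respond to the stress factor NRF2, which binds the antioxidant response element. RefSeq windows on GRCr8, from 250 bases before to 50 bases after the start, matched 6 of the 9 genes with 7 windows. Hmox1, Slc11a1 and Fth1 were not matched. The element core TGACNNNGC, searched on both strands, stood in 1 of the Hmox2 windows and in the Blvra window, and in 12.1% of all 33469 windows. The AP-1 motif TGANTCA was in none of the 7 windows, and in 7.33% of all windows. The windows of the 2 genes are shown 5′ to 3′ on the strand of the gene, with the core in capitals. In both the capitals are the core read on the opposite strand. The build of the count files is not given in the sources used here, so the windows were matched by symbol.
Blvra, chr3:134802660-134802959, plus strand, core beginning 145 bases before the start: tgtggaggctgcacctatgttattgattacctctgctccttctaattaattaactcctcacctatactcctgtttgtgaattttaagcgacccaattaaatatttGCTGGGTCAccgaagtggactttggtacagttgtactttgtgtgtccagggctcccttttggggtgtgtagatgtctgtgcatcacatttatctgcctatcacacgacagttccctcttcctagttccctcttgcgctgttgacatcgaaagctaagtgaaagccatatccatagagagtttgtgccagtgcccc
Hmox2, chr10:11337563-11337862, minus strand, core beginning 95 bases before the start: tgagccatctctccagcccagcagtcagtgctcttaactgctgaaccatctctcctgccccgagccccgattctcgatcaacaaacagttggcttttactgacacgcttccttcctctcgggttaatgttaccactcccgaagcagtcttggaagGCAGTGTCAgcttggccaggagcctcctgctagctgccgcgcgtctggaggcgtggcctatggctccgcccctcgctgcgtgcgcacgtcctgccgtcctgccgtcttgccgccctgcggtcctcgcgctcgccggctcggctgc
A motif match only describes these letters.

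7 of the 8 tested genes had higher mean expression with BAPN and 1, Cp, had lower. None of the 8 passed an FDR of 0.05 in edgeR's quasi-likelihood test, where 16.8% of all tested genes did, 7.5% with higher and 9.25% with lower expression. Their median log2 fold change was 0.60, against 0.02 over all tested genes. At an unadjusted p below 0.05 edgeR gave 6 of the 8, where it gave 35.8% of all tested genes. DESeq2 called 3 of the 8, Hmox1, Hmox2 and Fth1, all with higher expression, where it called 27.4% of all tested genes in either direction and 12.3% with higher expression. The groups did not overlap for 4 of the 8, Hmox1, Hmox2, Tfrc and Fth1, against 24.7% of all tested genes. In these 4 every BAPN rat lay above every vehicle rat, as in 12.7% of all tested genes. Expression is given as CPM, a read count scaled to library size, here after TMM scaling, FDR is the Benjamini-Hochberg adjusted p over all tested genes, and a positive log2 fold change is higher with BAPN. Standard errors and 95% intervals of these are from limma-voom, whose estimates differ slightly from those of edgeR.

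Total counts ranged from 45039451 to 52241007 in the BAPN libraries and from 19548203 to 22442050 in the vehicle libraries. Depth thus followed the groups, and whatever made the libraries differ in depth cannot be told apart from the treatment. With counts thinned at random to 19548203 per library, again none of the 8 genes was called. The vein samples held transcripts of smooth muscle and endothelium in every library, with summed CPM over 7 smooth muscle markers from 1620 to 5840 and over 6 measured endothelial markers from 216 to 1240. Of all called genes, 44.8% were higher with BAPN, and with scaling by total counts only this share was 30.5%. In whole tissue, fewer cells of a type and less RNA per cell cannot be told apart.

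**Figure D1:**
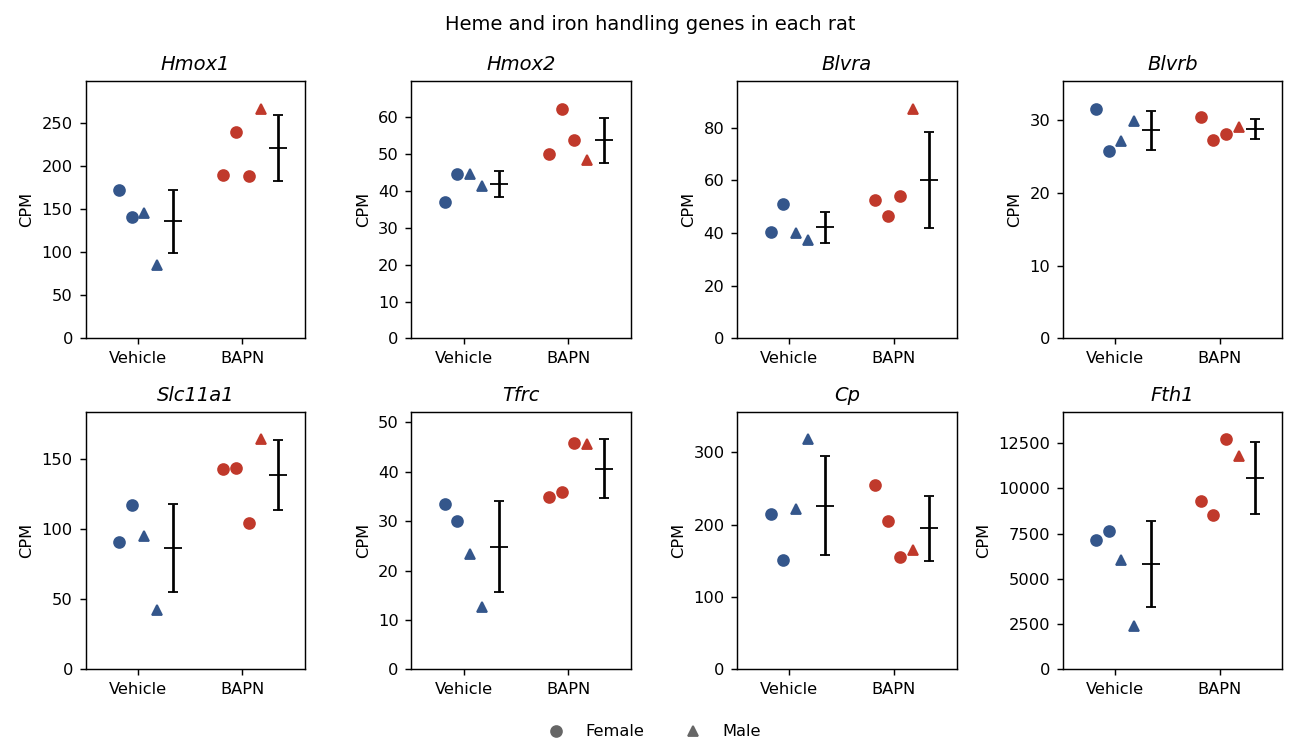
CPM of the 8 tested heme and iron handling genes in each rat, with vehicle rats in blue and BAPN rats in red, females as circles and males as triangles. The black bar is the mean ± SD of a group (n = 4), and the axes start at 0. BAPN rats lie above all vehicle rats for Hmox1, Hmox2, Tfrc and Fth1, and the groups overlap for Blvra, Blvrb, Slc11a1 and Cp.

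Hmox1 (ENSRNOG00000014117) was at 190, 240, 189 and 267 CPM in BAPN 1 to 4 and at 172, 141, 146 and 84.8 CPM in Vehicle 1 to 4. The highest vehicle rat was a female just under the lowest BAPN rats, and the lowest vehicle rat, Vehicle 4, was a male that stood well below the other three. BAPN rats averaged 221 ± 38.5 CPM and vehicle rats 136 ± 36.7 CPM (± SD, n = 4 rats each). This was a log2 fold change of 0.70, or 1.63-fold (standard error 0.23, 95% interval 0.21 to 1.26), and the FDR was 0.0536 by edgeR and 0.0153 by DESeq2. The exact two-sided permutation test gave p = 0.0286, the smallest that 4 rats against 4 allow. Without Vehicle 4 the log2 fold change was 0.53 (edgeR FDR 0.0693), and among females alone it was 0.40 (edgeR FDR 0.221).

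Hmox2 (ENSRNOG00000003773) was at 50.1, 62.4, 54.0 and 48.5 CPM in BAPN 1 to 4 and at 37.1, 44.7, 44.7 and 41.4 CPM in Vehicle 1 to 4. Vehicle 1 was the lowest rat and BAPN 2 the highest, both females, and the groups did not overlap. The means were 53.7 ± 6.21 and 42.0 ± 3.58 CPM (± SD, n = 4 rats each). The difference for Hmox2 was a log2 fold change of 0.36 (standard error 0.12, 95% interval 0.09 to 0.62), at an FDR of 0.0625 by edgeR and 0.0357 by DESeq2 and an exact two-sided permutation p of 0.0286. Among the 7 genes with higher means, Hmox2 alone had a log2 fold change among females, 0.44, that was above its value in all rats.

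Blvra (ENSRNOG00000011778), the main biliverdin reductase of adult tissue, was at 52.7, 46.6, 54.3 and 87.3 CPM in BAPN 1 to 4 and at 40.4, 50.9, 40.1 and 37.4 CPM in Vehicle 1 to 4. The male BAPN 4 was far above the 3 BAPN females, and Vehicle 2 lay above BAPN 2, so that the groups overlapped. Its log2 fold change was 0.51 (standard error 0.20, 95% interval 0.03 to 0.93, FDR 0.102 in edgeR and 0.08 in DESeq2, exact two-sided permutation p = 0.0571). Without BAPN 4 it was 0.28. Blvrb (ENSRNOG00000024410), the flavin and biliverdin reductase of red cells and other tissues, lay between 25.7 and 31.6 CPM in all 8 rats. BAPN rats averaged 28.7 ± 1.38 CPM and vehicle rats 28.6 ± 2.65 CPM (± SD, n = 4 rats each), and of the 8 genes it varied least over the rats. Its log2 fold change was 0.0065 (95% interval -0.23 to 0.25, edgeR FDR 0.972), its sign changed with the scaling, and the highest rat was 1.23 times the lowest.

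Slc40a1 (ENSRNOG00000049995), named for the exporter ferroportin, had 0 reads in 7 libraries and 1 read in Vehicle 2. A count of 0 allows up to 3 reads, for counting error only. Scaled by total counts alone, without TMM, this is 0.0574 to 0.0666 CPM in the BAPN libraries. In the 3 vehicle libraries without a read it is 0.134 to 0.143 CPM. No fold change is given, and the gene was not tested. Macrophages are known to express ferroportin, whereas this gene model had almost no reads, and how reads were assigned to this gene model is not given in the sources used here. The RefSeq gene table gives Slc39a1 as an older symbol of Slc40a1, and the separate gene listed as Slc39a1 was not used.

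Fth1 (ENSRNOG00000022619), the ferritin heavy chain, was at 9327, 8507, 12710 and 11782 CPM in BAPN 1 to 4 and at 7173, 7650, 6053 and 2398 CPM in Vehicle 1 to 4. Its reads were 0.851% to 1.27% of the TMM-scaled library size in BAPN rats and 0.24% to 0.765% in vehicle rats. These are not shares of the reads counted in a library. Vehicle 4 was again the lowest rat and BAPN 3 the highest, and the groups did not overlap. The means were 10581 ± 1987 and 5818 ± 2376 CPM (± SD, n = 4 rats each), a log2 fold change of 0.86, or 1.82-fold, the largest of the 8 genes (standard error 0.40, 95% interval 0.08 to 1.88). The FDR was 0.112 in edgeR and 0.0335 in DESeq2, and the exact two-sided permutation p was 0.0286. Without Vehicle 4 the log2 fold change was 0.60 (edgeR FDR 0.112), and among females alone it was 0.46. Ferritin genes have processed copies in the genome, and reads shared with them could be counted at either place.

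Tfrc (ENSRNOG00000001766), the transferrin receptor, was at 35.0, 35.9, 45.9 and 45.6 CPM in BAPN 1 to 4 and at 33.6, 30.0, 23.3 and 12.5 CPM in Vehicle 1 to 4. The groups did not overlap, but Vehicle 1 and BAPN 1 were close. The difference for Tfrc was a log2 fold change of 0.71, or 1.63-fold (standard error 0.26, 95% interval 0.20 to 1.37), at an FDR of 0.094 by edgeR and 0.0549 by DESeq2 and an exact two-sided permutation p of 0.0286. Without Vehicle 4 the log2 fold change was 0.49, and among females alone it was 0.29. Tfrc is known to be made in larger amounts by dividing cells, and of 7 proliferation markers 1, Pcna, was called with higher expression, with a summed CPM of 239 to 335 with BAPN and 186 to 282 with vehicle. The part of proliferation in the Tfrc values was not tested.

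Slc11a1 (ENSRNOG00000014956), the phagosomal metal transporter, was at 143, 144, 104 and 164 CPM in BAPN 1 to 4 and at 90.6, 117, 94.8 and 42.5 CPM in Vehicle 1 to 4. BAPN 3 lay within the vehicle range, and Vehicle 4 was the lowest rat. Its log2 fold change was 0.68 (standard error 0.30, 95% interval 0.07 to 1.43, FDR 0.109 in edgeR and 0.0655 in DESeq2, exact two-sided permutation p = 0.0571). Without Vehicle 4 it was 0.46. Cp (ENSRNOG00000011913), a copper enzyme that oxidizes iron for binding to transferrin, was at 254.9, 205, 156 and 164 CPM in BAPN 1 to 4 and at 215, 151, 221 and 318 CPM in Vehicle 1 to 4. Here Vehicle 4 was the highest rat, and the groups overlapped throughout. For Cp the log2 fold change was -0.21 (95% interval -0.74 to 0.35, edgeR FDR 0.537, exact two-sided permutation p = 0.543), and it was -0.0061 without Vehicle 4 and 0.16 among females alone.

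**Figure D2:**
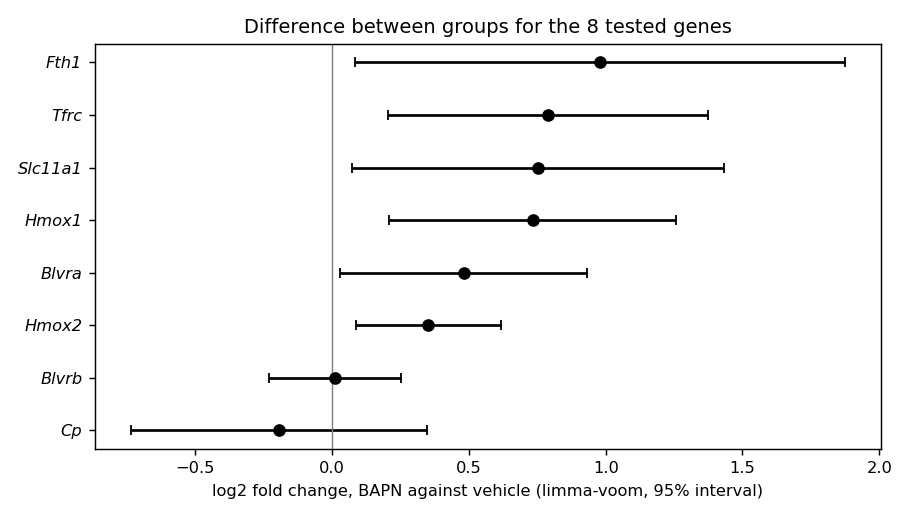
Log2 fold change of BAPN against vehicle estimated by limma-voom for the 8 tested genes (points), with 95% intervals (bars, not adjusted for the number of genes), ordered by size. The intervals of Fth1, Tfrc, Slc11a1, Hmox1, Blvra and Hmox2 lie above 0, and those of Blvrb and Cp include 0.

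The 8 genes did not share one pattern over the rats. Fth1, Tfrc, Slc11a1 and Hmox1 all had their lowest value in Vehicle 4, a male, and the highest rat was 3.15 to 5.30 times the lowest. Blvra was highest in BAPN 4 and also lowest in Vehicle 4, whereas Hmox2 was lowest in Vehicle 1, Blvrb in Vehicle 2 and Cp in Vehicle 2. The spread of vehicle rats was wide for Fth1 (coefficient of variation 40.8%), Tfrc (37.2%), Slc11a1 (36.3%), Cp (30.4%) and Hmox1 (27.0%), intermediate for Blvra (14.1%) and narrow for Hmox2 (8.53%) and Blvrb (9.27%).

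**Figure D3:**
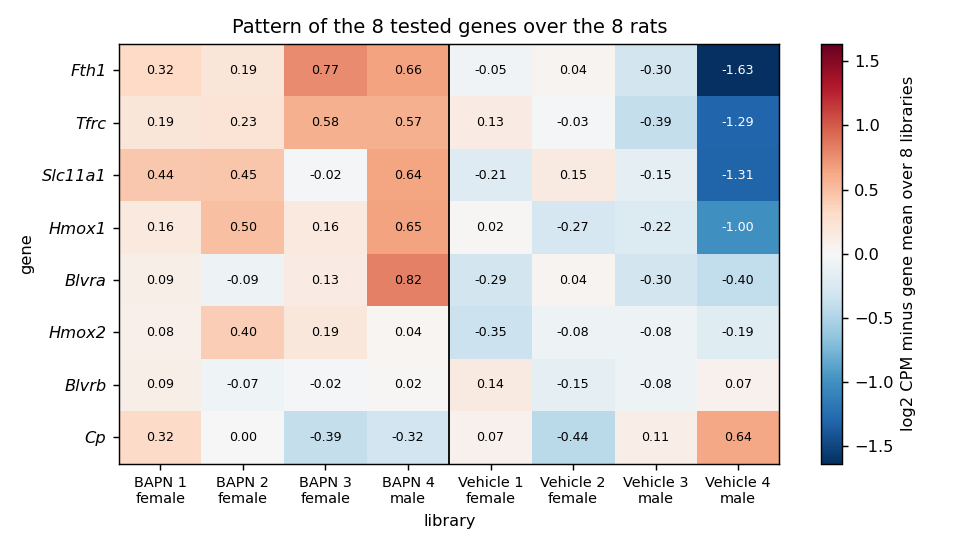
Log2 CPM of the 8 tested genes in each library minus the mean of the gene over the 8 libraries, red above and blue below the mean, with the value in each cell and a line between BAPN and vehicle libraries. Vehicle 4 is the bluest column for Fth1, Tfrc, Slc11a1 and Hmox1 and the reddest for Cp.

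Since Vehicle 4 and BAPN 4 were both males, the difference between groups was also taken within each sex. The difference of mean log2 CPM for Hmox1 was 0.40 in females and 1.26 in males, for Fth1 0.44 and 1.63, for Tfrc 0.28 and 1.41, for Slc11a1 0.32 and 1.37 and for Blvra 0.17 and 1.17. For Hmox2 it was 0.44 and 0.17, and for Cp 0.16 and -0.69. The male values rest on 1 BAPN rat against 2 vehicle rats. A test of the difference between the sexes therefore takes its spread from the other 3 combinations of treatment and sex and assumes that the lone BAPN male varies like them, so that a missed threshold says little about whether the sexes differed. In this test the interaction of treatment and sex was not called for any of the 8 genes (edgeR FDR 0.244 to 0.98), nor for any of the 11682 tested genes, of which 1442 had an unadjusted p below 0.05. The smallest unadjusted edgeR p among the 8 was 0.00442, for Blvra, whose interaction was 1.00 on the log2 scale.

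Macrophages take up heme with dying red cells, and their markers were counted beside these genes. Of 15 markers 13 were tested, 12 had a higher mean with BAPN and 1, Aif1, was called by edgeR (log2 fold change 0.80, standard error 0.16, FDR 0.0155), while DESeq2 called 4. The summed CPM of the list was 29600 to 42600 in BAPN rats and 6780 to 24100 in vehicle rats, with the lowest value in Vehicle 4, and most of it was the lysozyme gene Lyz2. Lyz2 averaged 31409 ± 6167 CPM in BAPN rats and 12900 ± 6618 CPM in vehicle rats (± SD, n = 4 rats each). Its FDR was 0.0722 in edgeR and 0.0076 in DESeq2. The lysosomal marker Cd68 was at 1149 ± 302 and 791 ± 330 CPM (± SD, n = 4 rats each). For Cd68 the groups overlapped, and the FDR was 0.261 in edgeR and 0.213 in DESeq2. Cd163, the macrophage receptor for hemoglobin bound to haptoglobin, which is also in the heme transport list, had a lower mean with BAPN (log2 fold change -0.25, edgeR FDR 0.746), and Marco had no reads. The fibroblast sum was highest in Vehicle 4, at 94300 CPM, against 23300 to 56800 CPM in the other rats. Most of it in Vehicle 4 was Col1a1 (48685 CPM) and Col3a1 (39373 CPM). Dpt, Dcn and Lum of this list were also highest in Vehicle 4. Pdgfra was highest in Vehicle 1 (294 CPM), and Pi16 was lowest in Vehicle 4 (87.9 CPM). The part of either cell type in the values of Hmox1, Fth1, Tfrc and Slc11a1 was not tested.

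Transcripts of red cells were measured because hemoglobin is the main source of heme. None of 6 tested red cell markers was called by edgeR or DESeq2 (0 had an unadjusted edgeR p below 0.05), and 2 had a higher and 4 a lower mean with BAPN. Their summed CPM was 769 to 2080 with BAPN and 897 to 2240 with vehicle, and the most abundant, the alpha globin gene Hba-a1, was at 786 ± 315 and 807 ± 320 CPM (± SD, n = 4 rats each). Of the other marker lists, edgeR called 4 of 7 smooth muscle and 2 of 6 endothelial genes lower, where DESeq2 called 4 and 3. EdgeR called 1 of 6 T cell and 2 of 3 B cell and plasma cell genes higher, where DESeq2 called 3 and 3. The summed CPM of the B cell and plasma cell list was 154, 194 and 218 in BAPN 1 to 3 but 6.63 in BAPN 4, below the 12.0 to 36.9 of the vehicle rats, and the groups overlapped for all 3 of its tested genes. Lower by edgeR were 1 of 5 adipocyte and 1 of 6 Schwann cell and nerve genes, where DESeq2 called 4 and 1. EdgeR called none of the 7 fibroblast, 2 neutrophil or 2 skeletal muscle genes. DESeq2 called 4, 0 and 1 of these, all with lower expression, and 4, 0 and 1 had an unadjusted edgeR p below 0.05.

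The 4 named genes whose pattern over the 8 libraries was nearest to that of Hmox1, among 10997, were Tnip2, Ccdc181, Tmem199 and Cd300a. The measure was the root mean square difference of log2 CPM after centring each gene on its mean, and it was 0.163, 0.181, 0.185 and 0.185. Tnip2 encodes an inhibitor of NF-κB signaling, Tmem199 an assembly factor of the vacuolar proton pump and Cd300a an inhibitory receptor of myeloid cells. Their log2 fold changes were 0.60, 0.50, 0.67 and 0.52, and edgeR called Tmem199 (FDR 0.0447). Of the 8 genes, Slc11a1 was nearest (0.234), then Tfrc (0.236), Blvra (0.342), Fth1 (0.355), Hmox2 (0.394), Blvrb (0.493) and Cp (0.736). With 8 libraries this order is a description.

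The rest of the pathway was taken from 7 lists of 61 other genes of heme and iron biology, of which 60 were found and 50 were tested. EdgeR called 3 of the 50 (6%), 2 with higher and 1 with lower expression, below the 16.8% of all tested genes, and DESeq2 called 4 higher and 3 lower. The median log2 fold change over the 50 was 0.09. No gene was called among 11 of heme synthesis, 2 of iron export and its control, 6 of iron sensing and heme-responsive factors or 11 of mitochondrial iron and iron-sulfur cluster assembly. DESeq2 called 2, 0, 0 and 1 of these, and 2, 0, 1 and 1 had an unadjusted edgeR p below 0.05.

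Ftl1, the ferritin light chain, rose from 5.65 ± 1.65 CPM in vehicle rats to 15.4 ± 4.29 CPM in BAPN rats (± SD, n = 4 rats each). It was at 10.4, 13.2, 19.4 and 18.5 CPM in BAPN 1 to 4 and at 5.41, 6.79, 7.0 and 3.42 CPM in Vehicle 1 to 4, with no overlap. For Ftl1 the log2 fold change was 1.44 (standard error 0.35, edgeR FDR 0.0161), and it was called in 14 of 17 alternatives, though not when Vehicle 1 was left out (FDR 0.0525), when replicate numbers entered as a block (FDR 0.0525) or among females alone (FDR 0.104). Ftl1 also has processed copies. Its counts were low for a ferritin chain, at most 19.4 CPM where Fth1 was at no less than 2398 CPM (neither per length). How reads shared with copies were counted is not given in the sources used here, so these counts may hold only part of the reads of Ftl1, and its fold change is that of the reads counted.

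Slc39a14, the zinc and iron importer ZIP14, rose from 102 ± 13.4 to 187 ± 60.6 CPM (± SD, n = 4 rats each). It was at 265 CPM in BAPN 1, at 189, 175 and 117 CPM in BAPN 2 to 4, and at 83.8 to 116 CPM in the vehicle rats, so the male BAPN 4 stood just above the highest vehicle rat. Its log2 fold change was 0.87 (standard error 0.21, edgeR FDR 0.0323). Among the fits without 1 library it was called without BAPN 4 or Vehicle 2 only (FDR 0.0227 and 0.0461), and without BAPN 1, 2 or 3 or Vehicle 1, 3 or 4 the FDR was 0.0505 to 0.0816. With sex as a covariate it was 0.0728.

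Slc46a1, the folate transporter also described as a heme carrier, fell from 10.9 ± 3.87 to 5.20 ± 0.892 CPM (± SD, n = 4 rats each), with a log2 fold change of -1.07 (standard error 0.30, edgeR FDR 0.0387). Vehicle 2, at 5.56 CPM, was within the BAPN range of 4.06 to 6.24 CPM. Among the fits without 1 library it was called without Vehicle 2 only (FDR 0.0116), and without each other library the FDR was 0.0555 to 0.0997. It was also not called with no filter on low counts (edgeR FDR 0.0508). With sex as a covariate the log2 fold change of Slc46a1 was -0.90 (edgeR FDR 0.0909), and among females alone it was -0.62 (edgeR FDR 0.318).

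EdgeR did not call the most abundant gene of any of these 7 lists, while DESeq2 called 2 of them, Tmem14c and Cisd1. Tmem14c, a porphyrin transporter of mitochondria, had a log2 fold change of 0.56 (FDR 0.0542 in edgeR and 0.0232 in DESeq2). Lrp1, the receptor for heme bound to hemopexin, had one of -0.53 (FDR 0.145), and the iron carrier Tf one of 0.19 (FDR 0.521). The values were -0.20 for the iron chaperone Pcbp2 (FDR 0.289), 0.31 for the ferroxidase Heph (FDR 0.441), 0.35 for the NRF2 gene Nfe2l2 (FDR 0.148) and 0.69 for Cisd1 of the outer mitochondrial membrane (FDR 0.0853, and 0.0476 in DESeq2), where the FDR is that of edgeR unless DESeq2 is named.

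Targets of NRF2, the factor of the element shown above, were counted beside Hmox1 and Fth1. Of 10 listed genes 9 were tested, and edgeR and DESeq2 each called 1 higher and 1 lower, with a median log2 fold change of 0.17. Prdx1, a peroxiredoxin that removes hydrogen peroxide, rose from 154 ± 21.9 to 310 ± 51.4 CPM (± SD, n = 4 rats each). For Prdx1 the log2 fold change was 1.01 (standard error 0.16, edgeR FDR 0.00965), and it was called in 16 of 17 alternatives, all but females alone (FDR 0.0864). Me1, the malic enzyme of NADPH supply, fell from 34.8 ± 3.69 to 25.8 ± 3.09 CPM (± SD, n = 4 rats each), with a log2 fold change of -0.43 (standard error 0.13, edgeR FDR 0.0478). Without 1 library it was called without BAPN 2 or Vehicle 3 only, and the FDR was 0.0596 to 0.122 in the other 6 of these fits. With sex as a covariate the edgeR FDR of Me1 was 0.0693, and among females alone it was 0.183.

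**Figure D4:**
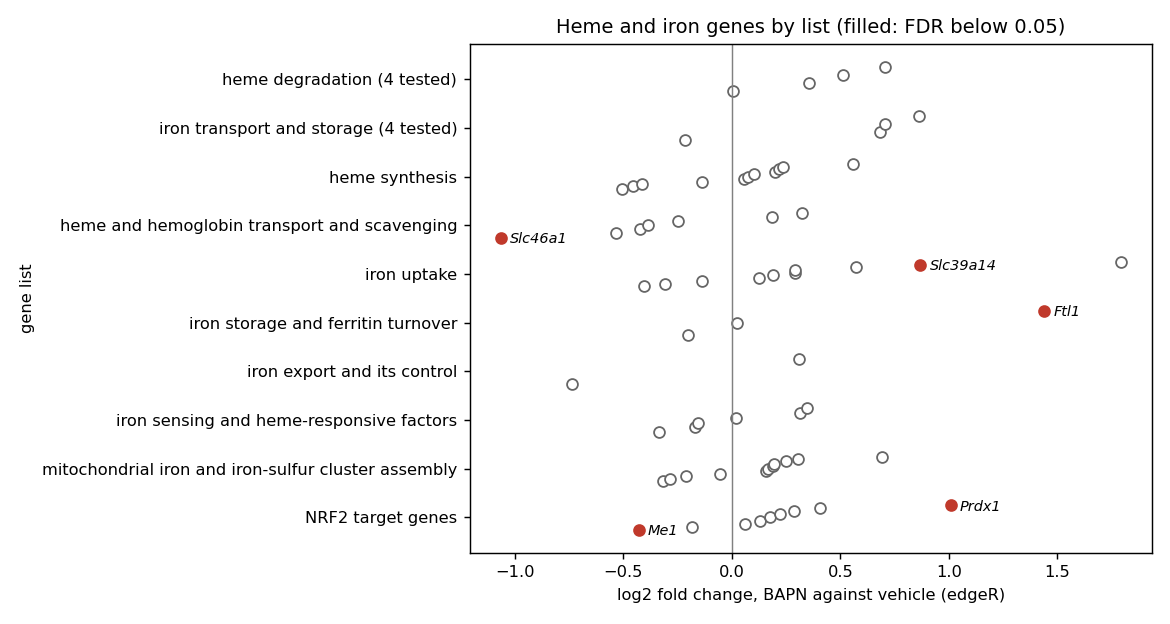
Log2 fold change of BAPN against vehicle in edgeR for the 8 tested heme and iron handling genes (upper 2 rows) and for tested genes of 7 further lists and of the NRF2 target list. Each point is a gene, spread vertically within its row for visibility, and filled red points with names have an FDR below 0.05, namely Slc46a1, Slc39a14, Ftl1, Me1 and Prdx1. The open point farthest to the right is Lcn2 (1.80, edgeR FDR 0.0918), with 79.5 CPM in BAPN 1 and between 5.55 and 18.9 CPM in every other rat.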

How the data were processed

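RNA from outflow veins of 8 rats was sequenced after ribosomal RNA depletion with a stranded kit. The authors deposited, per rat, whole-number counts of reads per Ensembl gene, without normalization. The submitters' processing notes name bcl2fastq 2.17, Trim Galore and STAR, and the counter, its strand setting and the genome build are not given in the sources used here. Counts were used as deposited, and condition, replicate number and sex came from the labels. Base means used DESeq2 1.42.0 size factors. EdgeR 4.0.16 (TMM, quasi-likelihood F test, treatment only) was fitted to 11682 genes, those whose base mean reached 100, with limma 3.58.1 (voom) for standard errors and R 4.3.3. A prior count of 2 went into log2 CPM. All 70 arrangements entered the exact permutation tests. Libraries within a group differed by more than sampling noise (chi-square over its degrees of freedom 68.6 to 320.8). Steps were tested on simulated data. By the methods of the study each library came from a separate rat.

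The 9 genes, the lists and the tests were chosen with earlier results of these data known. Named are the 9 genes, called genes and the most abundant tested gene of each heme, iron and NRF2 list, up to 2 of the most abundant markers of lists set beside a result, and the 4 genes nearest to Hmox1. One gene that this rule names is not reported here. No such genes were sought for Slc40a1, which was not tested. Aif1, Pcna, Cd163, Marco, Lcn2, Dpt, Dcn, Lum, Pdgfra and Pi16 were named after their values were seen. Alternatives were other scaling, filters and tools, sex, the replicate number as a block, females alone, equal totals and each library left out.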

Additional observations from a re-analysis of the deposited data

How the results depend on the processing

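None of the 8 tested genes was called by edgeR in any alternative, and DESeq2 called 3. Over all tested genes, DESeq2 called 3202, sex as a covariate left 930 calls, females alone 89, and leaving out 1 library gave 397 (Vehicle 1) to 2215 (Vehicle 2), and the count was 745 when BAPN 3 was left out, 906 for BAPN 4, 963 for Vehicle 4, 1210 for Vehicle 3 and 1224 for BAPN 2. Of the 50 other heme and iron genes DESeq2 called 7, females alone gave 0, and leaving out 1 library gave 0 (Vehicle 1) to 4 (Vehicle 2), with 1 without BAPN 1, 2 or 3 or Vehicle 3. Of the 9 NRF2 targets 1 was called with filterByExpr, 1 with no filter on low counts, 1 with sex as a covariate, 1 with equal totals and 0 among females alone, and leaving out 1 library gave 1 to 2. With the replicate number as a block edgeR called 556 genes, 0 of the 50 heme and iron genes, 1 NRF2 target and 0 of the 8 genes. Same-numbered rats did not deviate together (correlations 0.0944, -0.265, 0.269 and -0.14 for numbers 1 to 4), so the numbers were not taken as pairs.

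The direction was the same in all 17 alternatives for Hmox1, Hmox2, Blvra, Slc11a1, Tfrc and Fth1. Cp turned to 0.16 among females alone. Blvrb, near 0 throughout, turned to -0.0063 with DESeq2 size factors in edgeR, -0.048 with total counts only, -0.0062 in DESeq2, -0.0025 among females alone and -0.014 with equal totals, and lay between -0.040 and 0.058 with 1 library left out. Its interaction with sex turned from 0.028 to -0.064 with total counts only. The cause of these changes was not tested. The lowest count of the 8 tested genes in a library was 263 reads, for Tfrc in Vehicle 4, and Slc40a1, with 1 read in all, was not compared.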
